A study of Mus musculus with 7 samples.

Results

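Genes of cholesterol synthesis and of its transcriptional control by SREBP2 were followed in quadriceps femoris muscle of mice that overexpress a mutant form of Twinkle and in muscle of wild-type mice. The members are 8 genes, Srebf2, Hmgcs1, Sqle, Fdps, Fdft1, Lss, Cyp51 and Insig1, taken as every probe set that the platform annotation assigns to 1 of these symbols and to no other. This gave 21 probe sets among 45101 on the array, and 8 genes among 18193 tested. Twinkle is the helicase of mitochondrial DNA, and these mice model progressive external ophthalmoplegia, a mitochondrial muscle disease. There were 3 mutant Twinkle overexpressors, aged 24, 24 and 21 months, and 4 wild-type mice, aged 26, 24, 21 and 23 months, with 1 Affymetrix array each. The labels call the arrays biological replicates. The sources used here do not name the promoter that drives the transgene, the strain or the sex of the mice. The free-text description of each sample names cerebellum where the other labels name muscle. Of 3 estimated level classes, the highest (8 to 16 on the log2 scale) held all 10 muscle fibre markers and 0 of 9 measured cerebellum markers. Among all 18193 genes, 3750 outside the members were in that class. The cerebellum markers lay in the classes from 4 to 8 (5 genes) and from 2 to 4 (4 genes). Twnk, the gene of the transgene, read -0.15, 0.44 and 0.00 in mutant muscle against 0.34, -0.13, -0.14 and 0.15 in wild-type muscle, and the groups overlapped. The sources used here do not say whether its probe set detects the transgene. Fgf21, a hormone gene induced in muscle with mitochondrial dysfunction, read 2.03, 0.93 and 0.83 against -0.43, -0.40, 0.00 and -0.05, and the groups did not overlap. Groups were apart in 2.08% of all genes. Like every gene tested, Fgf21 did not pass after adjustment over 18193 genes.

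Cells make cholesterol from acetyl-CoA through mevalonate, farnesyl pyrophosphate, squalene and lanosterol. SREBP2, the product of Srebf2, is a transcription factor that is made as a membrane protein. While sterols are plentiful, INSIG proteins hold it in the endoplasmic reticulum together with its escort SCAP; when sterols run low it moves to the Golgi, is cut free, and switches on the genes of the whole pathway. The amount of Srebf2 transcript therefore does not show how much of the protein is active. Skeletal muscle makes some of its own sterols and also uses the pathway for ubiquinone and for prenylated proteins, while fat cells and liver carry far more of the lipid synthesis that the related factor SREBP1 controls.

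SREBP2 binds a short sequence called the sterol regulatory element, usually close to sites for the factors NF-Y and Sp1. Promoter sequences of RefSeq (GRCm38.p6) were matched for 5 of the 8 members, Cyp51, Hmgcs1, Insig1, Lss and Srebf2, and the 250 bases before the annotated start were searched on both strands for 4 motifs. Of the sterol regulatory element only the spelling TCACNCCAC was searched. It was found in 1 of the 5, Hmgcs1, 137 bases before the start, and in 1.05% of the 32851 promoters in the table. The NF-Y motif CCAAT was found in all 5 members and in 33.8% of all promoters. The Sp1 motif GGGCGG was likewise found in all 5, and in 32.7% of all promoters. The E-box CACGTG was found in 1 member, Insig1, 101 bases before the start, and in 6.02% of all promoters. A match describes letters and not a bound site, and a member without a match can hold an element spelled otherwise. The 3 sequences below are those of the regulator, of the member with that spelling of the element, and of the member whose transcript varied most between arrays. They run 5′ to 3′ on the gene's strand, which is the plus strand for all 3, and capitals mark the matched motifs. They lie at chr15:82147019-82147268 (Srebf2), chr13:119690101-119690350 (Hmgcs1) and chr5:28071162-28071411 (Insig1).
Srebf2: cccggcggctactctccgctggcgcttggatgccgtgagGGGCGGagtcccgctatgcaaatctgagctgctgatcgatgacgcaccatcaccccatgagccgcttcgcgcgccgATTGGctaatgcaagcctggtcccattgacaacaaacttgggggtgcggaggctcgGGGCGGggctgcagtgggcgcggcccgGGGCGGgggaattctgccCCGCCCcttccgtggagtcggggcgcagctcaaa
Hmgcs1: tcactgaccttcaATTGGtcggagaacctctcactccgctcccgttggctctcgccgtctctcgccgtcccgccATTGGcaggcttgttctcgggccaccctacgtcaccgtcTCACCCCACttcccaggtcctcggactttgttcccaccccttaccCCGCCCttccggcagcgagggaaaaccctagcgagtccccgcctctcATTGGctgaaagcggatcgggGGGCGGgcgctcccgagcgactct
Insig1: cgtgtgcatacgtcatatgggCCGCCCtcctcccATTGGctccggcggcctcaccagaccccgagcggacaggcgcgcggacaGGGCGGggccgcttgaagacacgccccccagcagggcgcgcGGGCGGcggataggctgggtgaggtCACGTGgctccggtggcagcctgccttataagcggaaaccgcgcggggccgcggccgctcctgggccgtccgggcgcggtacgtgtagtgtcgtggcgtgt

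None of the 8 sterol genes passed the test between mutant and wild-type muscle. Differences ran from -0.36 for Insig1 to 0.23 for Srebf2 on the log2 scale, 4 members measured higher and 4 lower in mutant muscle, and the median difference was -0.03 (median of all genes -0.01). With limma and Benjamini-Hochberg adjustment over 18193 genes, every member had an adjusted p of 1.00, and 0% of all genes passed at 0.05. Unadjusted p-values of the members ran from 0.0966 to 0.989, so 0 of 8 were under 0.05, where 1.44% of all genes were. The 2 groups overlapped in all 8 members, and were apart in 2.08% of all genes. The share of all genes with a positive difference was 46.5%, against 4 of 8 members. These values are deposited log2 values centred on each row's median, so 0 is the median array and a value gives a difference between arrays, never a level. In whole muscle, fewer cells of a type and less RNA per cell cannot be told apart.

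**Figure D1:**
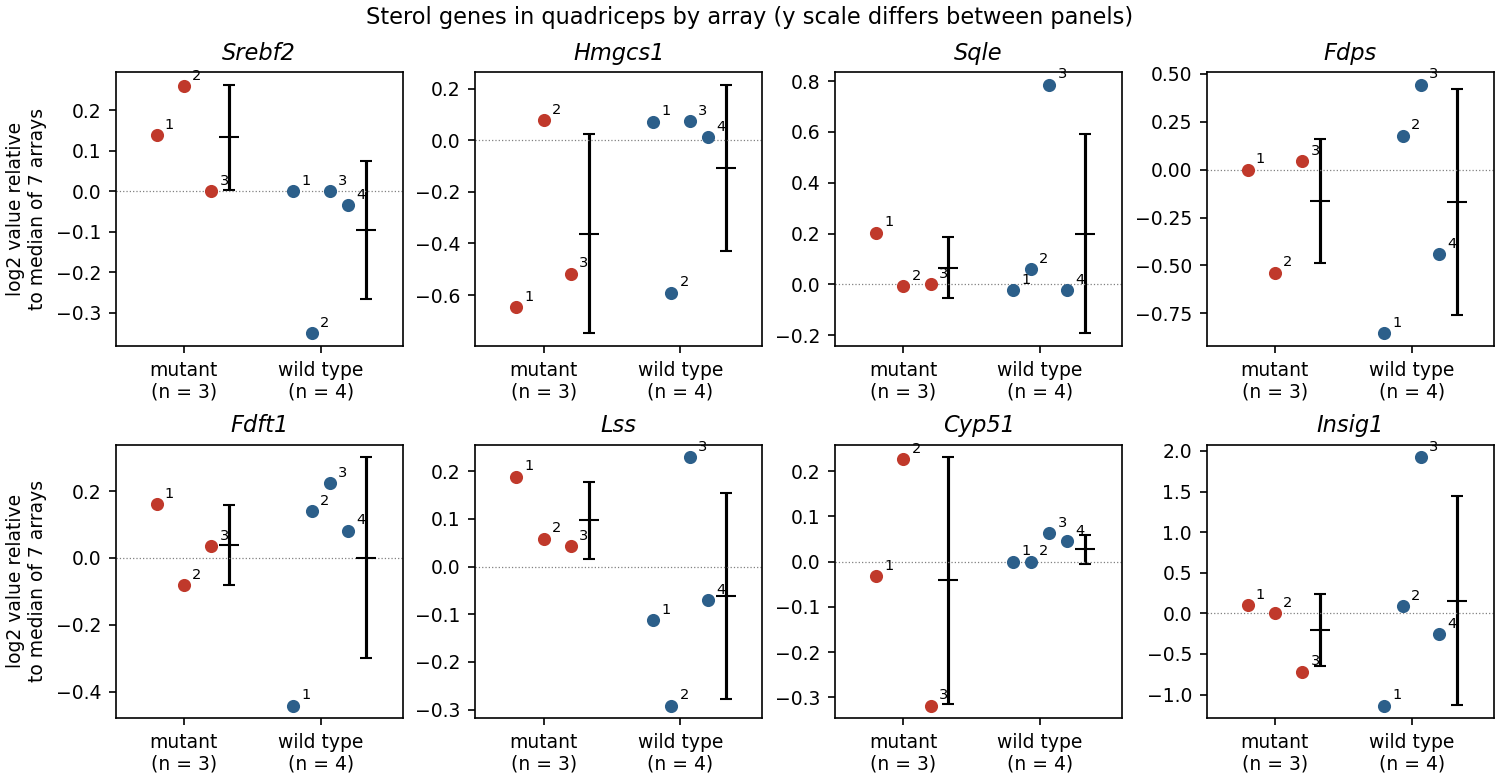
Each panel shows 1 gene; points are arrays, numbered by replicate, in log2 units relative to the median of the 7 arrays, and bars give the mean and SD of each group (3 mutant in red, 4 wild type in blue). The y scale differs between panels. The groups overlap in all 8 panels, and wild-type replicate 3 is the highest array for Sqle, Fdps, Fdft1, Lss and Insig1.

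Srebf2, the regulator, had the smallest p of the members. It measured 0.14, 0.26 and 0.00 in mutant replicates 1, 2 and 3 and 0.00, -0.35, 0.00 and -0.03 in wild-type replicates 1 to 4. Mutant replicates 1 and 2 lay above every wild-type array, and mutant replicate 3 was level with wild-type replicates 1 and 3. The difference was 0.23 ± 0.12 (SE), or 1.17-fold (95% confidence interval -0.05 to 0.51 on the log2 scale, limma adjusted p = 1.00). Once the lowest array, wild-type replicate 2, was left out, it was 0.14. The gene value is that of the probe set 1426744_at, in the highest level class. The second Srebf2 probe set, 1452174_at in the class from 4 to 8, measured 0.15, 0.00 and -0.25 in mutant and -0.12, 0.00, 0.37 and 0.01 in wild-type muscle, a difference of -0.10 ± 0.15. The 2 probe sets of the regulator thus differed in sign, and the mean over both gave 0.07.

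Hmgcs1 encodes the synthase that makes HMG-CoA, the first committed step towards mevalonate. Averaged over the 2 probe sets of its highest level class it measured -0.65, 0.08 and -0.52 in mutant and 0.07, -0.59, 0.07 and 0.01 in wild-type muscle. The values fell into a low set of 3 arrays (mutant replicates 1 and 3 and wild-type replicate 2) and 4 arrays near 0, and the low set held mice of both groups. The difference was -0.25 ± 0.23 (SE; 95% interval -0.79 to 0.29). Without wild-type replicate 2 it was -0.41 and without mutant replicate 2 it was -0.47, with adjusted p-values of 1.00 and 0.997 in limma. It shrank to -0.11 when mutant replicate 1 was left out, and to -0.051 when wild-type replicate 3 was left out as well. In mutant replicate 1, the lowest array for Hmgcs1, the 18S ribosomal RNA control read 3.19, against -0.77 to 0.56 in the other 6 arrays, and its part in the result was not tested. The same 3 arrays were the lowest in the probe sets 1433443_a_at, 1433444_at and 1433445_x_at, at -0.41 or below in each, while 1433446_at and 1441536_at ran only from -0.07 to 0.28 and from -0.05 to 0.39.

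Fdps makes farnesyl pyrophosphate, the branch point towards sterols, ubiquinone and prenylated proteins. It measured 0.00, -0.54 and 0.04 in mutant and -0.85, 0.18, 0.44 and -0.44 in wild-type muscle, a difference of 0.00 ± 0.32 (SE; 95% interval -0.75 to 0.75). Mutant replicate 2 and wild-type replicates 1 and 4 were low and the other 4 arrays were at 0 or above, so arrays of both groups lay on either side. The difference became -0.22 once wild-type replicate 1 was left out, and 0.21 once wild-type replicate 3 was. Its second probe set, 1438150_at in the lowest class from 2 to 4, spread only from -0.13 to 0.12, and the same 3 arrays were below 0 in it.

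Fdft1, the squalene synthase that commits farnesyl pyrophosphate to sterols, measured 0.16, -0.08 and 0.04 in mutant and -0.44, 0.14, 0.22 and 0.08 in wild-type muscle, a difference of 0.04 ± 0.17 (SE). This mean of 3 probe sets hides a disagreement between them. The probe set 1448130_at gave 0.20, -0.27 and 0.00 in mutant and -0.91, 0.25, 0.34 and -0.20 in wild-type muscle. The probe set 1438322_x_at gave -0.23, 0.60 and -0.09 in mutant and 0.00, 0.17, -0.33 and 0.44 in wild-type muscle. Mutant replicate 2 and wild-type replicate 4 were thus high in one and low in the other, and wild-type replicate 3 was highest in the first and lowest in the second. The suffix _x_at marks probe sets whose probes can also match other transcripts. Differences of the 4 Fdft1 probe sets ran from -0.29 to 0.11, and the lowest was that of 1438919_x_at (-0.29 ± 0.16).

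Sqle, the squalene epoxidase that carries out a rate-limiting oxygen-dependent step, stood out in 1 mouse. It measured 0.20, -0.01 and 0.00 in mutant and -0.02, 0.06, 0.79 and -0.02 in wild-type muscle, so wild-type replicate 3 lay far above the other 6 arrays. The difference was -0.13 ± 0.21 (SE; 95% interval -0.62 to 0.35), and without wild-type replicate 3 it was 0.06. Lss, the cyclase that forms lanosterol, measured 0.19, 0.06 and 0.04 in mutant and -0.11, -0.29, 0.23 and -0.07 in wild-type muscle, a difference of 0.16 ± 0.13 (SE; 95% interval -0.15 to 0.46). All 3 mutant arrays lay above 3 of the 4 wild-type arrays, and wild-type replicate 3 lay above all of them. Without that array the difference was 0.26 (limma adjusted p = 1.00), and without wild-type replicate 2, the lowest, it was 0.081. Without both wild-type replicates 1 and 2 it was 0.017.

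Cyp51, the sterol 14-demethylase that acts on lanosterol, measured -0.03, 0.23 and -0.32 in mutant and 0.00, 0.00, 0.06 and 0.04 in wild-type muscle. The mutant arrays lay on both sides of the narrow wild-type range, with an SD of 0.27 against 0.03, and the difference was -0.07 ± 0.13 (SE). Wild-type replicates 1 and 2 both held exactly 0. More than 1 array was at exactly 0 in 11 of the 21 probe sets here and in 56.4% of all probe sets, so small differences within such rows are not resolved. The 3 Cyp51 probe sets gave differences of -0.07, -0.04 and 0.14.

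**Figure D2:**
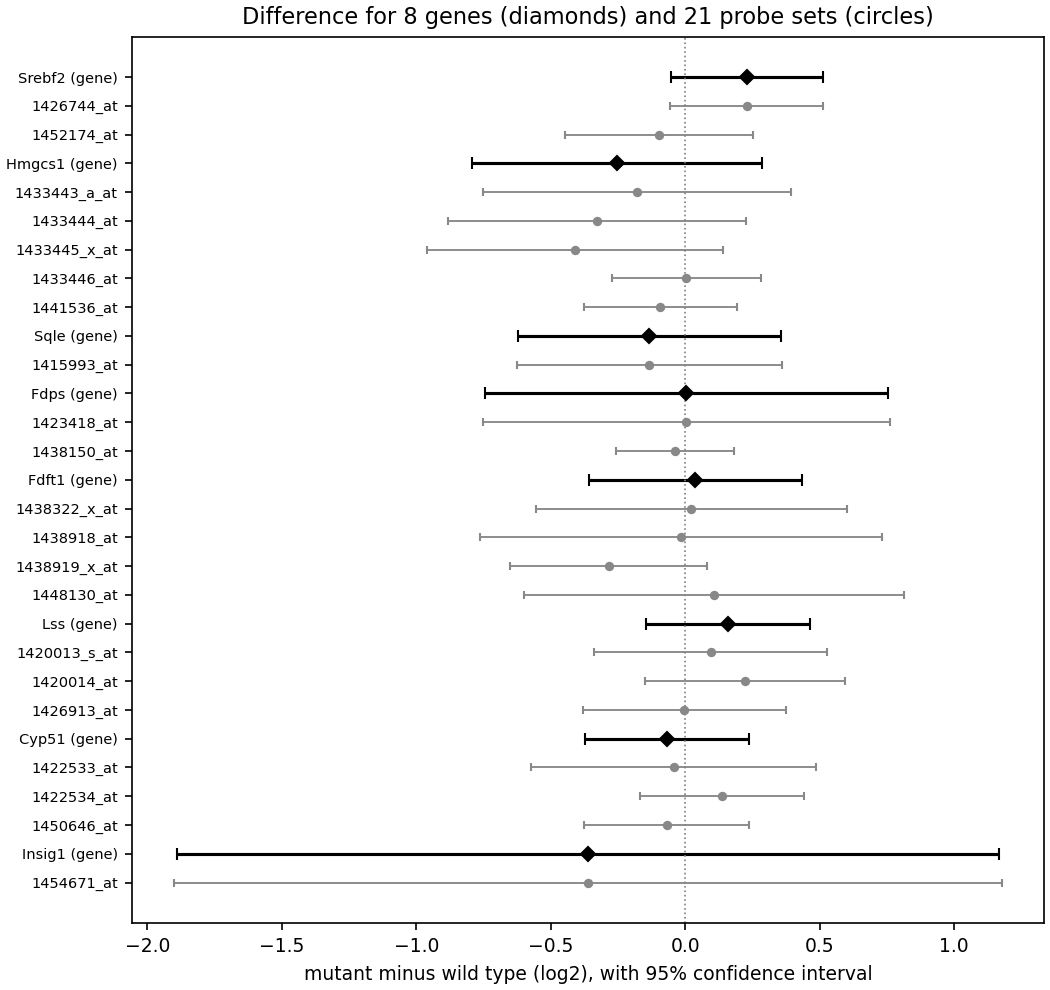
Differences between mutant and wild-type muscle in log2 units with 95% confidence intervals from limma, for the 8 genes (diamonds) and each of their 21 probe sets (circles). All intervals include 0; among the genes the widest is that of Insig1, from -1.89 to 1.17.

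Taken by probe set, 8 of the 21 differences were above 0 and 13 below, from -0.41 for the Hmgcs1 probe set 1433445_x_at to 0.23 for the Srebf2 probe set 1426744_at. With limma over 34945 probe sets of 1 gene symbol, 0 of 21 passed after adjustment (0% of all), 0 of 21 had an unadjusted p under 0.05 (1.79% of all), and the groups overlapped in all 21 (they were apart in 2.05% of all). The 21 probe sets share genes, so they are not independent. Of the 21, 7 lay in the highest level class, 9 in the class from 4 to 8 and 5 in the class from 2 to 4.

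**Figure D3:**
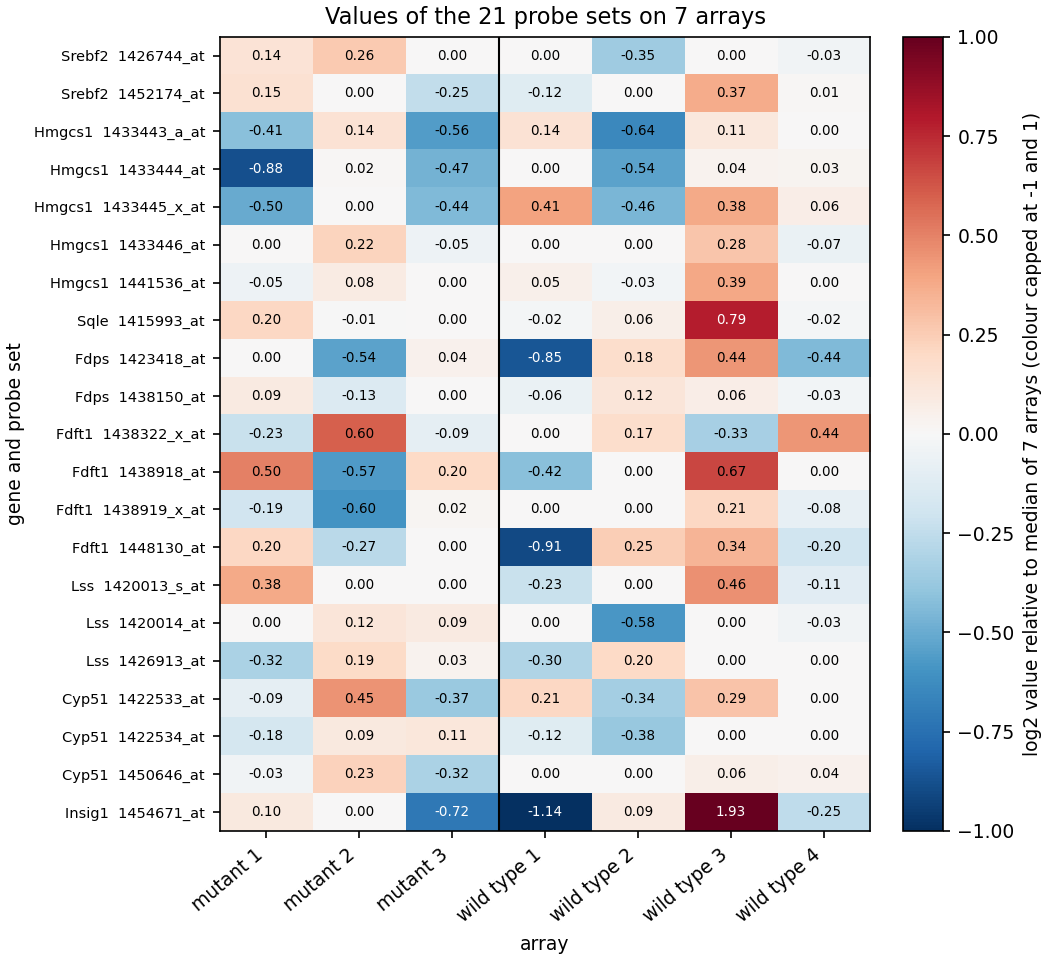
Rows are the 21 probe sets and columns the 7 arrays; colour and printed numbers give the log2 value relative to the median of the 7 arrays (colour capped at -1 and 1). Wild-type replicate 3 is the highest array in 11 of the 21 rows, and Fdft1 1438322_x_at runs opposite to Fdft1 1448130_at.

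Insig1 had the widest range between mice of the 8 members, and its groups overlapped. Its protein retains the SREBPs in the endoplasmic reticulum, and the gene is itself switched on by them. It measured 0.10, 0.00 and -0.72 in mutant and -1.14, 0.09, 1.93 and -0.25 in wild-type muscle. The wild-type mice alone spanned the lowest and the highest value, a range of 3.06 on the log2 scale that was wider than in 99.7% of all genes. The lowest, wild-type replicate 1, was the oldest wild-type mouse (26 months), and the highest, wild-type replicate 3, the youngest (21 months). Mutant replicate 3, also aged 21 months, was the lowest mutant array, at -0.72. The part of age itself in the Insig1 values was not tested. The difference between groups was -0.36 ± 0.65 (SE; 95% interval -1.89 to 1.17), or -0.52 ± 0.57 (SE) with age as a covariate. Leaving out wild-type replicate 3 gave 0.23, and leaving out wild-type replicate 1 gave -0.79. With mutant replicate 1 left out as well as wild-type replicate 3 it was 0.08.

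The arrays in which Insig1 was high and low were those in which genes of fatty acid synthesis were high and low. The 9 genes of that list, among them the acetyl-CoA carboxylase Acaca, the desaturase Scd1 and the acetyl-CoA synthetase Acss2, averaged 0.13, 0.32 and -0.71 in mutant and -1.54, 0.49, 1.54 and -0.75 in wild-type muscle. All 9 were highest in wild-type replicate 3, where 24.6% of all genes were highest, and 7 of 9 were lowest in wild-type replicate 1, where 14.7% of all genes were lowest. Insig1 and the list shared their lowest array, their highest array and mutant replicate 3 and wild-type replicate 4 as the other arrays below 0. The 8 measured adipocyte markers averaged 0.00, -0.24 and -0.05 in mutant and -0.89, 0.52, 1.09 and -0.11 in wild-type muscle, and 6 of the 8 were highest in wild-type replicate 3 and 6 lowest in wild-type replicate 1. Their part in the Insig1 values was not tested. Fibroblast markers (1.11) and leukocyte markers (0.55) were also highest in wild-type replicate 3 and muscle fibre markers lowest (-0.59). The Gapdh control's 5 prime minus 3 prime value, a sign of RNA quality, was -0.55 there against -0.040 to 0.094 elsewhere. Probes for actin did not repeat this drop. Their 5 prime minus 3 prime reading in wild-type replicate 3, 0.119, lay inside the span of the remaining arrays (-0.136 to 0.124).

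**Figure D4:**
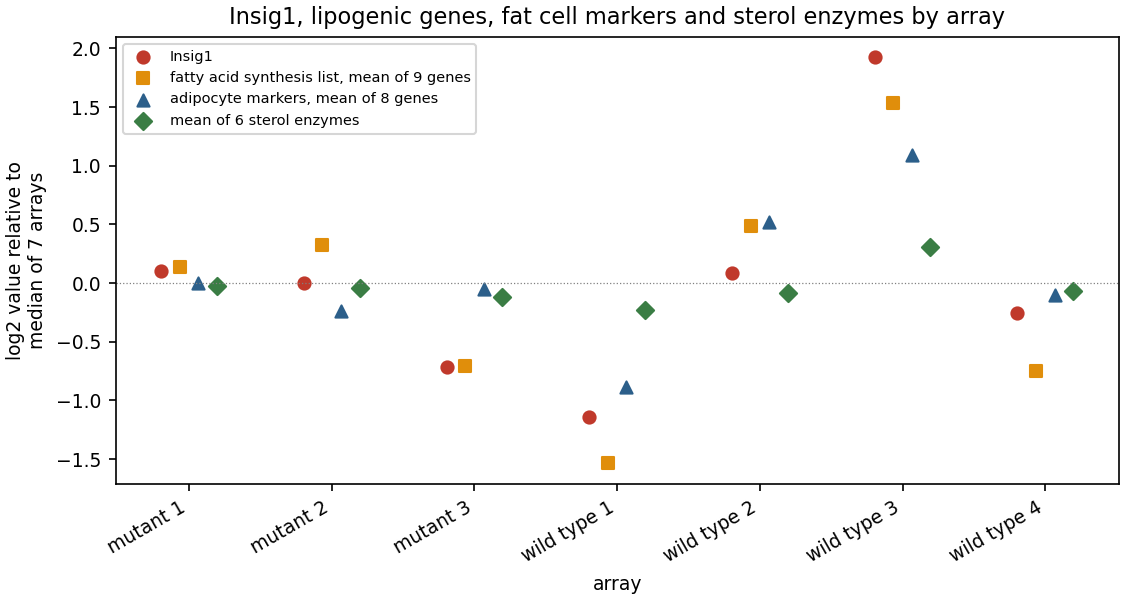
Points give, for each array, Insig1 (circles), the mean of 9 fatty acid synthesis genes (squares), the mean of 8 adipocyte markers (triangles) and the mean of 6 sterol enzymes (diamonds), in log2 units relative to the median of the 7 arrays. All 4 are lowest in wild-type replicate 1 and highest in wild-type replicate 3, and the sterol enzyme mean runs only from -0.23 to 0.30.

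The 6 sterol enzymes (Hmgcs1, Fdps, Fdft1, Sqle, Lss and Cyp51) did not follow 1 common pattern over the arrays. Their mean was -0.02, -0.04 and -0.12 in mutant and -0.23, -0.08, 0.30 and -0.07 in wild-type muscle. Wild-type replicate 3 was the only array with all 6 enzymes above 0, and 5 of the 8 members were highest there, where 24.6% of all genes were. In 5 of the other 6 arrays 3 enzymes were above 0 and in wild-type replicate 1 only 1 was. Over all genes, the first principal component held 52.2% of the variance and set mutant replicate 2 and wild-type replicates 1 and 4 on one side and the other 4 arrays on the other. Fdps averaged -0.61 on the first side and 0.17 on the second, and Hmgcs1 averaged 0.06 and -0.42, so the side means of these 2 enzymes ran in opposite directions. Not every array did so: in wild-type replicate 3, on the second side, Fdps was at 0.44 and Hmgcs1 at 0.07. With the side of each array as a block, the difference was 0.26 for Srebf2 and -0.13 for Fdps, with adjusted p-values of 0.891 and 0.922 in limma. Within the side of 4 arrays, mutant minus wild type was 0.25 for Srebf2, -0.32 for Hmgcs1, -0.32 for Sqle, -0.29 for Fdps, -0.08 for Fdft1, 0.15 for Lss, -0.21 for Cyp51 and -1.31 for Insig1. Within the side of 3 arrays these were 0.28, 0.04, 0.02, 0.11, 0.10, 0.15, 0.20 and 0.70. That side holds 1 mutant and 2 wild-type arrays, and the split was made after seeing the data, so these values are given without a test.

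Srebf2 was set against each of its 7 targets over the 7 arrays, with 7 relations tested by exact permutation of the arrays, two-sided. No relation passed. The strongest was with Lss (Pearson r = 0.72, permutation p = 0.0726, adjusted p = 0.508; Spearman rho = 0.67, permutation p = 0.114, adjusted p = 0.800), and it was 0.56 without wild-type replicate 2 and mutant replicate 2, the arrays farthest from the Srebf2 median. The other Pearson coefficients were 0.36 for Hmgcs1, 0.29 for Cyp51, 0.01 for Sqle, -0.01 for Insig1, -0.20 for Fdft1 and -0.36 for Fdps, with adjusted permutation p-values from 0.813 to 0.994 (Spearman rho from -0.37 to 0.33, each with an adjusted permutation p of 0.824). After each group's mean was removed, Srebf2 and Hmgcs1 varied together (Pearson r = 0.88, exact permutation p = 0.00437, adjusted p = 0.0306; Spearman rho = 0.96, adjusted permutation p = 0.0222). In that setting the 2 arrays farthest from the Srebf2 median were wild-type replicate 2 and mutant replicate 3, and without them r was 0.98 over 5 arrays (exact permutation p = 0.0167, adjusted p = 0.117). That coefficient cannot test the relation. The 2 mutant arrays left, centred on their own mean, deviate equally in opposite directions. The wild-type arrays left lay close together in both genes, so the size of r was nearly fixed beforehand. The permutation does not allow for the 2 estimated group means, and with the means kept, the coefficient without wild-type replicate 2 and mutant replicate 2 was -0.73. With each gene averaged over all its probe sets, the coefficients were 0.72 for Lss, 0.71 for Cyp51, 0.63 for Insig1 and 0.61 for Sqle. Hmgcs1 was then at 0.46, Fdft1 at 0.13 and Fdps at 0.08, and none passed (adjusted permutation p from 0.186 to 0.863). The sides of the first principal component hold 4 and 3 arrays, too few for a correlation within them.

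Other genes around the pathway were read from 7 lists with 62 genes, of which 52 were measured here. After adjustment 0 of the 52 passed in limma, 2 had an unadjusted p under 0.05 (3.85%, against 1.44% of all genes), 28 measured higher and 24 lower, and the median difference was 0.01. Both genes with the small p-values handle cholesterol that enters the cell. Npc1, which exports cholesterol from lysosomes, measured 0.41, 0.23 and 0.00 in mutant and 0.00, -0.22, -0.37 and -0.20 in wild-type muscle, a difference of 0.41 ± 0.13 (SE; limma adjusted p = 1.00). Scarb1, the receptor for high density lipoprotein, measured 0.30, 0.35 and 0.04 in mutant and -0.15, -0.09, 0.04 and -0.22 in wild-type muscle, a difference of 0.33 ± 0.11 (SE; limma adjusted p = 1.00). In both genes mutant replicates 1 and 2 lay above every wild-type array and mutant replicate 3 was level with the highest of them. The mean of 10 endothelial and mural cell markers was also higher in every mutant array, at 0.03 to 0.12 against -0.24 to 0.02 in wild-type muscle. Of these 10 markers 9 measured higher (46.5% of all genes did), with a median difference of 0.21. None passed after adjustment in limma (0 with an unadjusted p under 0.05). The 10 muscle fibre markers also had 9 that measured higher, with a median difference of 0.04. The part of either list in the Npc1 and Scarb1 differences was not tested, nor was that of the high 18S control in mutant replicate 1. Leaving out that array gave 0.31 for Npc1 and 0.30 for Scarb1. Vldlr, a lipoprotein receptor, in the same list, differed by 0.24 ± 0.36.

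The remaining lists held no member with an unadjusted p under 0.05. Of 4 other mevalonate enzymes 2 measured higher and 2 lower, with Idi1, the isomerase of isopentenyl pyrophosphate, at 0.10 ± 0.18, Mvd at -0.07 ± 0.14 and Pmvk at -0.05 ± 0.24. Of 8 late sterol enzymes 5 measured higher and 3 lower, with Nsdhl at -0.20 ± 0.37, Tm7sf2 at -0.07 ± 0.14 and Lbr at 0.09 ± 0.38. Nsdhl, which removes methyl groups after lanosterol, was at 0.00 in all 3 mutant arrays and at -0.52, 0.35, 1.19 and -0.23 in wild-type muscle, so it shared its lowest and highest arrays with Insig1. Of 8 genes that hold, escort, cut or degrade the SREBP machinery 3 measured higher and 5 lower, with the escort Scap at 0.10 ± 0.12, Insig2 at 0.10 ± 0.14 and Erlin1 at -0.08 ± 0.14. Of 8 genes of efflux and oxysterol response 5 measured higher and 3 lower, with the exporters Abcg1 at -0.29 ± 0.19 (-0.13 without wild-type replicate 2) and Abca1 at 0.04 ± 0.10 and the hydroxylase Cyp27a1 at 0.09 ± 0.15. Of 8 genes of the isoprenoid branches 6 measured higher and 2 lower, with the prenyltransferase subunit Pggt1b at 0.22 ± 0.16, and Dhdds and Nus1, which form the dolichol synthase, at 0.25 ± 0.24 and 0.09 ± 0.09. Without mutant replicate 2 these 3 were 0.063, -0.067 and 0.027. Of the 9 fatty acid synthesis genes 3 measured higher and 6 lower, with Scd1 at -0.17 ± 0.27, Acaca at -0.30 ± 0.73 and Acss2 at 0.24 ± 0.60.

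Among 3750 genes outside the members in the highest level class, those closest to the mean profile of the 6 enzymes over the 7 arrays were Bola3, Mrpl39 and Dnajc15, at root mean square distances of 0.066, 0.069 and 0.071 on the log2 scale. In these 3 genes wild-type replicate 1 was lowest, at -0.20, -0.22 and -0.14, and wild-type replicate 3 highest, at 0.28, 0.18 and 0.35. The enzyme mean has the same lowest and highest arrays, so sharing them follows from how the 3 genes were chosen.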

How the data were processed

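RNA was measured in quadriceps muscle of 3 mutant and 4 wild-type mice, with groups and replicate numbers from the sample titles. The deposited table holds log2 values of 45101 probe sets, each row with a median of exactly 0. Per the submitters' processing notes the authors used GCOS 4.0; the summary method, the scaling and the centring are not given in the sources used here, and the base of 2 is read from the values. Level classes (2 to 4, 4 to 8, 8 to 16) were estimated by likelihood from how finely spaced the stored values are, a rule tested on simulated data. Symbols of 34945 probe sets were updated by Entrez identifier through RefSeq (GRCm38.p6; 204 kept the annotation's symbol), while 932 with several symbols, 9211 unnamed ones and all controls were not used. A gene's value is the mean of its probe sets in its highest class.

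The group comparison used limma 3.58.1 under R 4.3.3 (lmFit and eBayes, two-sided, no covariate), with Benjamini-Hochberg adjustment over 18193 genes and a threshold of 0.05. The fit was tested on simulated data with noise independent between genes. It recovered 12% of 50 genes shifted by 0.5 on the log2 scale and 68% of 50 shifted by 1, so small shifts would mostly not pass. Members and lists were chosen with earlier results of these data known. Named genes are the 8 members, the 3 smallest p-values per list, and the 3 nearest genes to the enzyme profile. Shared replicate numbers do not pair the arrays: the correlations of deviations for numbers 1, 2 and 3 were -0.47, -0.29 and 0.13. Alternatives were leaving out arrays, quantile normalization, all probe sets, a filter on dim genes, age, a replicate block, a robust prior and a principal component block. Arrays give no read depth, so their number limits the precision.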

Additional observations from a re-analysis of the deposited data

Results flagged for a closer look

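In the wild-type group of 4, 29 sets of values were tested for a lone array (8 genes and 21 probe sets, which overlap), and 7 were marked because 1 array lay far from the other 3. These were 3 of 8 genes and 4 of 21 probe sets, where the same rule marked 13.1% of all 18193 genes and 15.3% of all 34945 probe sets, above the 5% expected by chance for values without ties at 0. Wild-type replicate 2 stood below the other 3 in Srebf2 (-0.35 against -0.03 to 0.00; the same value in its probe set 1426744_at), in Hmgcs1 (-0.59 against 0.01 to 0.07), in the Hmgcs1 probe set 1433444_at (-0.54 against 0.00 to 0.04) and in the Lss probe set 1420014_at (-0.58 against -0.03 to 0.00). Wild-type replicate 3 stood above the other 3 in Sqle (0.79 against -0.02 to 0.06), which rests on the single probe set 1415993_at. Causes were not tested.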

How the results depend on the processing

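The count of genes past the threshold was 0 under all 16 alternatives, and that of probe sets 0 under the 1 run for it (quantile normalization). With limma, between 98 (replicate block) and 908 (principal component block) genes had an unadjusted p under 0.05. Srebf2, Hmgcs1 and Lss kept the sign of their difference in all 16 alternatives but not its size: Srebf2 ran from 0.065 (over all probe sets) to 0.30, Hmgcs1 from -0.47 to -0.051 and Lss from 0.017 to 0.26. The 4 members with a positive difference became 2 with age as a covariate, 2 with the principal component block and 2 without wild-type replicates 1 and 2, and ranged from 2 to 6 when 1 array was left out. No cause was tested. The replicate block gave 3, and it turned Fdps to -0.086 and changed no call; same-numbered arrays are not paired. Fdps was -0.17 without wild-type replicates 1 and 2, -0.017 over all probe sets, -0.089 with age and -0.13 with the principal component block, and Fdft1 was -0.11, -0.043, -0.0051 and -0.010 in these. Over all probe sets Cyp51 was 0.0085 and Idi1 -0.057. Without wild-type replicates 1 and 2, Idi1 was -0.011 and Acss2 -0.21, and with quantile normalization Lbr was -0.075 and Abca1 -0.011. Without mutant replicate 1 and wild-type replicate 3 together, a choice made after seeing the data like the principal component block, Insig1 was 0.076, Pmvk 0.12, Nsdhl 0.13, Erlin1 0.10, Cyp27a1 -0.0091 and Acaca 0.16.

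With 1 array left out at a time, differences ran from 0.14 to 0.30 for Srebf2, -0.47 to -0.11 for Hmgcs1, 0.081 to 0.26 for Lss, -0.40 to -0.13 for Abcg1, 0.063 to 0.36 for Pggt1b, 0.027 to 0.13 for Nus1, 0.31 to 0.52 for Npc1, 0.27 to 0.43 for Scarb1, -0.21 to 0.061 for Sqle, -0.22 to 0.21 for Fdps, -0.11 to 0.11 for Fdft1, -0.20 to 0.070 for Cyp51, -0.79 to 0.23 for Insig1, -0.23 to 0.084 for Pmvk, -0.20 to 0.058 for Mvd, -0.072 to 0.25 for Idi1, -0.44 to 0.13 for Nsdhl, -0.24 to 0.040 for Tm7sf2, -0.28 to 0.29 for Lbr, -0.032 to 0.22 for Scap, -0.023 to 0.20 for Insig2, -0.15 to 0.033 for Erlin1, -0.058 to 0.47 for Vldlr, -0.027 to 0.089 for Abca1, -0.032 to 0.16 for Cyp27a1, -0.067 to 0.44 for Dhdds, -0.78 to 0.28 for Acaca, -0.15 to 0.72 for Acss2 and -0.34 to 0.066 for Scd1.

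Of the 7 relations of Srebf2, 1 passed with group means removed and 0 otherwise. Coefficients that changed sign were 0.17 for Insig1 with group means removed; -0.73 for Hmgcs1, 0.24 for Fdps, 0.25 for Fdft1, -0.024 for Cyp51 and 0.076 for Insig1 without the 2 arrays farthest from the Srebf2 median; 0.078 for Fdps, 0.13 for Fdft1 and 0.63 for Insig1 over all probe sets; and -0.057 for Sqle, -0.19 for Lss and 0.044 for Insig1 with both group means removed and 2 arrays left out, which was added after seeing the data.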
